A study of Mus musculus with 19 samples.

Results

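Chrna4, Sema5b and Acp3 are 3 genes of the mouse liver transcriptome whose transcript levels differed between diets in earlier readings of these libraries. They were picked by name out of 55836 genes listed, of which 13597 had enough counts to be tested, and all 3 passed that filter. Chrna4 and Sema5b were picked for a large fall and a large rise in MD + Veh against CD + Veh. Acp3 was picked for its fall in CD + PE against CD + Veh. Those differences are therefore given as levels without a test, and tests are kept for MD + PE against CD + PE and MD + PE against MD + Veh. Earlier results of these data were known when the genes were chosen, so these tests are not fully independent of the choice.

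Bulk RNA sequencing was performed on the livers of 19 male wild-type C57BL/6 mice, 1 library per mouse, 4 of them on CD + Veh and 5 on each of CD + PE, MD + Veh and MD + PE. The extraction label speaks of 4 livers chosen at random, although 3 of the groups hold 5 separately labelled libraries, and the labels were taken as given. CD was a matched control diet and MD a high-fat, high-fructose and high-cholesterol diet that produces metabolic dysfunction-associated steatohepatitis (MASH). PE was 2 mg of polyethylene microplastic particles per mouse and day, given by oral gavage in water with Tween 20, and Veh was the same fluid without particles. The mice were 8 weeks old at the start, and diet and gavage ran together for 8 weeks. Mice of a group shared housing, so cage and group cannot be told apart, and all 4 groups carried the wild-type genome, so no group is a genetic model.

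Chrna4 encodes the alpha-4 subunit of the neuronal nicotinic acetylcholine receptor, an ion channel of 5 subunits that opens when acetylcholine or nicotine binds, and in the brain alpha-4 is mostly joined with the beta-2 subunit encoded by Chrnb2. Sema5b encodes a semaphorin anchored in the cell membrane, a guidance protein with thrombospondin repeats that steers growing axons, and semaphorins are read by plexin and neuropilin receptors on the cells they meet. Acp3 encodes prostatic acid phosphatase, which exists as a secreted enzyme and as a membrane form that removes phosphate from AMP outside the cell and so yields adenosine. None of the 3 is a classical marker of the hepatocyte, the cell that makes up most of the liver and carries its sterol, fatty acid and bile acid synthesis.

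On the GRCm39 build, Chrna4 (ENSMUSG00000027577.16) occupies chr2:180660173-180685339 on the minus strand, with 6 exons in its canonical transcript. Sema5b (ENSMUSG00000052133.18) occupies chr16:35360820-35485102 on the plus strand, with 22 exons. Acp3 (ENSMUSG00000032561.17) occupies chr9:104165441-104214947 on the minus strand, with 11 exons. The gene annotation places other genes over each of them (Gm74971 on the strand of Chrna4, Gm5963 and Gm59738 opposite Sema5b, Gm68690 opposite Acp3), and none of these was among the genes tested.

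Promoter letters are shown for Chrna4 and Acp3, whose levels over all libraries correlated positively with sterol synthesis genes (median r 0.954 and 0.850). Within groups the median r was 0.535 for Chrna4 and 0.067 for Acp3. Sema5b correlated negatively, with a median r of -0.894 over all libraries and -0.315 within groups. The RefSeq windows, 250 bases before to 50 after a RefSeq start site, lie on GRCm38.p6 at chr2:181039128-181039427 for Chrna4, chr16:35541112-35541411 for Sema5b and chr9:104337673-104337972 for Acp3 (listed under its older symbol Acpp). The RefSeq start lies 146 bases inside the canonical transcript of Chrna4, 248 bases inside that of Sema5b and 11 bases inside that of Acp3, so the Sema5b window falls almost wholly within its canonical transcript. Printed are the bases of a window before the canonical start, 5′ to 3′ on the strand of the gene, which are chr2:181039324-181039427 for Chrna4 and chr9:104337734-104337972 for Acp3. Capitals mark the GC box GGGCGG on either strand.
Chrna4: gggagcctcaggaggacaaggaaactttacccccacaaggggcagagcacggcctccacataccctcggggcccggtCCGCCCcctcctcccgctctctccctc
Acp3: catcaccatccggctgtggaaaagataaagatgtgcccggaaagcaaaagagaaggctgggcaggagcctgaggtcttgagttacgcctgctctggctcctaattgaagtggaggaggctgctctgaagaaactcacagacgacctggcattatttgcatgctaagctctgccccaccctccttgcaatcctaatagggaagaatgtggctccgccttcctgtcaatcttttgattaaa
The Chrna4 window was 74.3% G or C and held 3 GC boxes, which began 173, 89 and 51 bases before the RefSeq start, the latter 2 inside the canonical transcript. The Sema5b window was 73.0% G or C and the Acp3 window 52%, against a median of 52.7% over 32851 RefSeq promoters, and neither held a GC box. A GC box was present in 35.7% of all promoters and in 17 of the 20 promoters listed for the sterol synthesis genes.

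The same windows were searched on both strands for the sterol regulatory element TCACNCCAC, the CCAAT box CCAAT, the E-box CACGTG, the D-box TTATGTAA and the DR1 element, a direct repeat of AGGTCA spaced by 1 base. None of the 3 windows held any of them, which says only that these letters are not in these 300 bases. These elements occurred in 1.24%, 37.4%, 7.15%, 0.938% and 0.0396% of all promoters, respectively. Of the 20 sterol synthesis promoters, 16 held a CCAAT box, 4 an E-box and 1 the sterol regulatory element.

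Chrna4 fell through the 4 groups, from a clearly transcribed gene in CD + Veh to a gene at the limit of detection in MD + PE. In CD + Veh it was at 53.2, 115, 48.1 and 151 CPM (counts scaled to a common library size after TMM normalization, an edgeR correction for composition), from 856, 1601, 717 and 2236 counts. In CD + PE it was at 10.79, 23.68, 6.53, 11.95 and 12.05 CPM, from 130, 270, 74, 119 and 122 counts. Every CD + PE library was thus below every CD + Veh library, as for 4.35% of all genes.

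In MD + Veh, Chrna4 was at 3.803, 2.17, 1.09, 0.464 and 3.40 CPM, from 60, 35, 16, 6 and 44 counts. In MD + PE it was counted once in replicate 1, 5 times in replicate 4 and not at all in replicates 2, 3 and 5. The 4 groups did not overlap anywhere along this order. The mean was 91.7 ± 49.6 CPM (SD, n = 4) under CD + Veh, 13.0 ± 6.38 (SD, n = 5) under CD + PE, 2.19 ± 1.44 (SD, n = 5) for MD + Veh and 0.0849 ± 0.149 (SD, n = 5) for MD + PE. Non-overlap in the direction of Chrna4 was held by 8.88% of genes for MD + Veh against CD + Veh, 3.96% for MD + PE against CD + PE and 2.49% for MD + PE against MD + Veh. The gap was narrowest between the MD groups, with 0.464 CPM in the lowest MD + Veh library and 0.343 CPM in the highest MD + PE library.

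**Figure D1:**
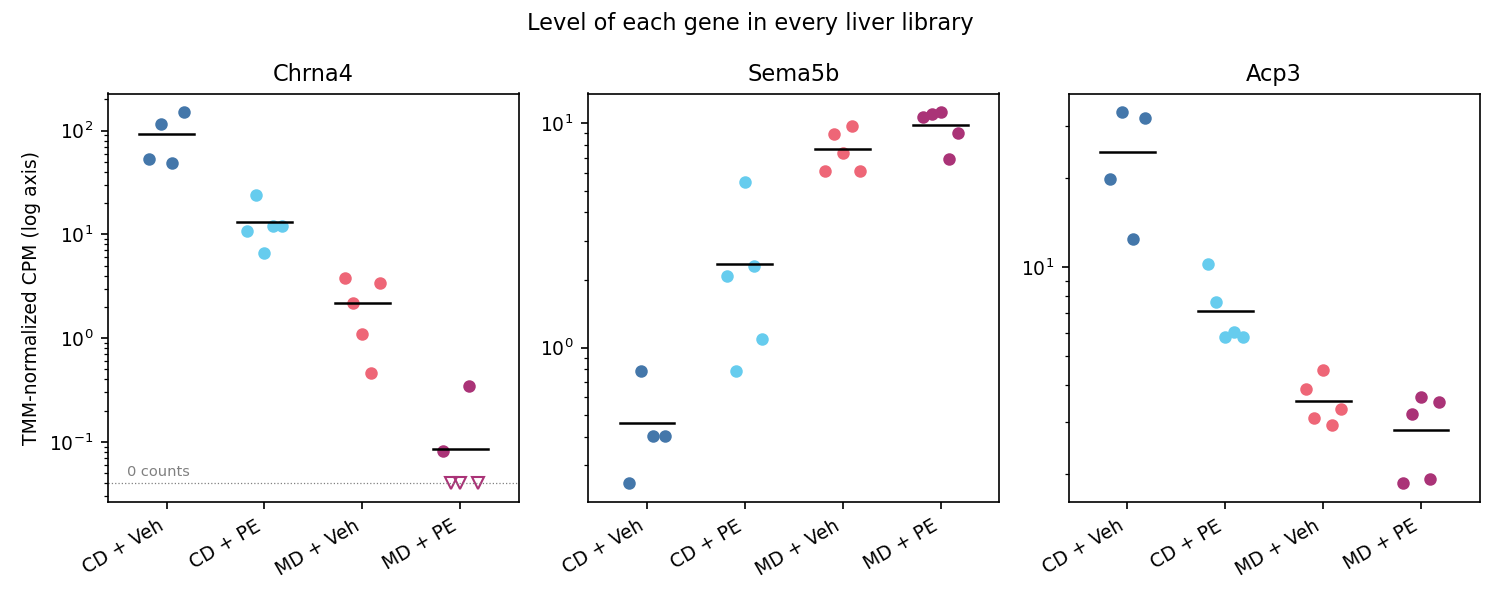
Level of Chrna4, Sema5b and Acp3 in each of the 19 liver libraries, in TMM-normalized CPM on a log axis, with 1 point per mouse and a bar at the group mean; open triangles are libraries with 0 counts. Chrna4 steps down through all 4 groups to 3 MD + PE libraries at 0, Sema5b is highest in both MD groups, and Acp3 is lowest in both MD groups.

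An order from CD + Veh down through CD + PE and MD + Veh to MD + PE, without overlap at any step, was held by 12 of the 13597 genes (0.0883%). The order was chosen after the Chrna4 values were seen. Beside Chrna4, the 12 genes were Dhcr7, Fdps, Nsdhl, Pmvk and Sc5d, all from the list of 24 sterol synthesis genes, Acss2, which makes acetyl-CoA from acetate, Slc25a1, the mitochondrial citrate carrier, and Avpi1, Cyb5r3, Echdc1 and Zfand4.

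Under PE, Chrna4 and Acp3 were lower and Sema5b was higher on MD than on CD. No MD + PE or CD + PE library is in the comparison named for picking Chrna4 and Sema5b, whereas Acp3 was picked with the CD + PE libraries. The genes were chosen with earlier results of these data known, so the tests are not fully independent of the choice. For MD + PE against CD + PE, edgeR called 627 of 13597 genes (4.61%), 230 higher (1.69%) and 397 lower (2.92%), where a call needs an adjusted p under 0.05 and a log2 fold change of 0.38 or more in size. Chrna4 changed by -6.93 (log2, SE 0.77, edgeR adjusted p = 9.77e-06), the sixth largest fall of all genes tested. In pooled counts, 6 in MD + PE stood against 715 in CD + PE, which is 133-fold lower at equal depth (95% exact interval 61 to 365, counting error only). With so few counts the fitted fold change depends on the prior count that edgeR adds, and a prior count of 2 gave -5.72.

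Under MD, edgeR called 147 genes (1.08%) for MD + PE against MD + Veh, 0.147% of genes higher and 0.934% lower, and Chrna4 changed by -4.37 (log2, SE 0.97, adjusted p = 0.029). Chrna4 passed the count filter through the CD libraries, where it was high. With only the MD groups compared, it had too few counts to be tested. Pooled, Chrna4 in MD + PE against MD + Veh was 6 counts against 161, or 22.7-fold lower (95% exact interval 10.2 to 62.9, counting error only). That interval leaves out the spread between mice, and 5 of the 6 MD + PE counts came from replicate 4. This comparison shares the MD + Veh libraries with the one that picked Chrna4, and an adjusted p above the limit was found without MD + Veh replicates 1 (0.0936) or 2 (0.051) and without MD + PE replicates 2 (0.0713), 3 (0.0903) or 5 (0.0639). As a description, Chrna4 differed by -5.37 (log2, SE 0.47) in MD + Veh against CD + Veh, where 5.63% of genes were called lower, and by -2.82 (SE 0.41) in CD + PE against CD + Veh, where 1.7% were. For Chrna4, the two-sided exact permutation test over libraries gave p = 0.00794 in MD + PE against CD + PE. It gave the same p in MD + PE against MD + Veh. This is the smallest value that 5 against 5 libraries allow.

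The libraries fell into 2 sets that follow their numbering, since the pseudogene Rps6-ps4 had 1088 to 1690 counts in the 4 CD + Veh libraries and in MD + Veh replicates 1, 2 and 3, and 0 counts in all others. MD + PE and CD + PE lie wholly on one side of this division. On that side, Chrna4 was at 0.464 and 3.40 CPM in MD + Veh replicates 4 and 5, both above the 5 MD + PE libraries. With the division as a covariate, Chrna4 in MD + PE against MD + Veh was at -4.18 with an adjusted p of 0.259. CD + Veh has no library on that side, so PE and the division cannot be told apart under CD except through the MD + Veh libraries.

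Of the 16 nicotinic receptor subunits, 4 had enough counts to be tested (Chrna2, Chrna4, Chrnb1 and Chrnb2). Beside Chrna4, neither edgeR nor DESeq2 called any of the other 3. In MD + PE against CD + PE, edgeR called 4.61% of all genes, and no call among 3 genes is near that share. Chrna2, another alpha subunit, had group means of 4.40 CPM (CD + Veh), 4.97 (CD + PE), 6.35 (MD + Veh) and 7.63 (MD + PE), a difference of 0.62 (log2, SE 0.23, adjusted p = 0.118) in MD + PE against CD + PE. Chrnb2, the usual partner of alpha-4, was at 1.93, 2.41, 2.10 and 1.88 CPM in the same order, a difference of -0.36 (log2, SE 0.27, adjusted p = 0.47). Chrnb1, the beta subunit of muscle, differed by 0.31 (log2, SE 0.59, adjusted p = 0.816).

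The other 12 subunits were at or near 0 in every group, which at this depth does not show that they are absent. Chrna3, Chrna5, Chrna6, Chrna10, Chrnb3 and Chrng had 0 counts in all 19 libraries, and the highest count of Chrna1, Chrna7, Chrna9, Chrnb4, Chrnd or Chrne in any library was 9. The count of called subunits rose from 1 to 2 with the replicate block, with a clock covariate and without CD + PE replicate 5. Of the 4 subunits tested, Chrna4 was again the only one called in MD + PE against MD + Veh, where 1.08% of all genes were.

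Genes that make, break down or answer acetylcholine gave no calls by edgeR in any comparison between groups. In these comparisons edgeR called 1.08% to 10.4% of all genes, and no call among 4 genes tested is near those shares. Of 18, 4 had enough counts: Bche, the butyrylcholinesterase that the liver secretes, Lynx1 and Ly6e, of a family of small proteins that includes modulators of nicotinic receptors, and Chrm3, a muscarinic receptor. Between MD + PE and CD + PE they differed by 0.01 (SE 0.11), -0.04 (SE 0.84), -0.31 (SE 0.23) and 0.34 (SE 0.40) on the log2 scale, none with an unadjusted p under 0.05. Lynx1 had 300 counts in MD + Veh replicate 1 and 3 to 39 in all other libraries, and in MD + Veh against CD + Veh it differed by 2.45 (log2, SE 0.87, adjusted p = 0.0659) and was called by DESeq2. An unadjusted edgeR p under 0.05 was also found for Lynx1 and Ly6e in MD + PE against MD + Veh. The same held for Bche in CD + PE against CD + Veh and for Lynx1 in MD + Veh against CD + Veh. The count of called genes became 1 under 6 alternatives in MD + Veh against CD + Veh. It became 1 under 1 alternative in each of MD + PE against MD + Veh and CD + PE against CD + Veh. Chat, the enzyme that makes acetylcholine, had 0 counts in all 19 libraries.

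Sema5b ran the other way and was lowest in CD + Veh. In CD + Veh it was at 0.249, 0.788, 0.403 and 0.404 CPM, from 4, 11, 6 and 6 counts. In CD + PE it was at 2.08, 0.789, 5.47, 2.31 and 1.09 CPM, from 25, 9, 62, 23 and 11 counts. The groups met without overlapping, since the highest CD + Veh library (11 counts) and the lowest CD + PE library (9 counts) had almost the same level once scaled for depth, and 3.49% of all genes were higher in CD + PE without overlap.

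In MD + Veh, Sema5b was at 6.15, 8.98, 7.36, 9.75 and 6.10 CPM, and in MD + PE at 10.6, 11.0, 11.2, 6.94 and 9.07 CPM. Both MD groups lay above every CD library, as for 7.37% of genes in MD + Veh against CD + Veh and 2.21% in MD + PE against CD + PE. Their own ranges overlapped, so that the MD groups, with means of 7.67 ± 1.65 CPM (SD, n = 5) after Veh and 9.78 ± 1.80 (SD, n = 5) after PE, cannot be ordered. The CD means were 0.461 ± 0.2299 CPM (SD, n = 4) after Veh and 2.35 ± 1.86 (SD, n = 5) after PE. The spread was widest in CD + PE, where replicate 3 reached 5.47 CPM.

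Sema5b rose by 2.05 on the log2 scale in MD + PE against CD + PE (SE 0.35, edgeR adjusted p = 0.00126, exact permutation p = 0.00794). Against MD + Veh it differed by 0.35 in MD + PE (log2, SE 0.32, adjusted p = 0.662, exact permutation p = 0.0873), which did not exceed the spread between mice. As a description, Sema5b differed by 4.05 (log2, SE 0.46) in MD + Veh against CD + Veh, where 10.4% of genes were called and 4.74% called higher, and by 2.35 (SE 0.48) in CD + PE against CD + Veh, where 2.92% were called and 1.22% called higher.

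Of 20 semaphorins, 15 had enough counts, and edgeR called 2 in MD + PE against CD + PE, where 4.61% of all genes were called. Without Sema5b this is 1 of 14, and DESeq2 called 2 of these 14, Sema4a and Sema5a. Beside Sema5b, this was Sema4a, a membrane semaphorin known from immune cells, at 65.7 ± 2.67 CPM (SD, n = 5) after CD + PE and 48.9 ± 4.67 CPM (SD, n = 5) in MD + PE, a fall of 0.43 on the log2 scale (SE 0.07, adjusted p = 0.000979). Sema5a, the closest relative of Sema5b, was at 0.630 and 1.79 CPM in these groups, a difference of 1.49 (log2, SE 0.49, edgeR adjusted p = 0.0727). In MD + Veh against CD + Veh, which picked Sema5b, edgeR called none of the other 14, where 10.4% of all genes were called. Sema4a differed there by -0.29 (log2, edgeR adjusted p = 0.0126), under the fold limit. In MD + PE against MD + Veh none of the 15 was called by edgeR, where 1.08% of all genes were. Sema4a had an edgeR adjusted p of 0.0126 there too, with a log2 fold change of -0.37, under the fold limit. There, 3 of the other 14 had an unadjusted p under 0.05, DESeq2 called none, and 1 was called when MD + Veh replicate 4 or 5 or MD + PE replicate 2 was left out.

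On the receptor side, 9 of 11 plexins and neuropilins had enough counts. Plxnb1, a receptor for the semaphorin encoded by Sema4d, fell in both diet comparisons. Its group means were 81.3 CPM (CD + Veh), 67.5 (CD + PE), 34.6 (MD + Veh) and 28.8 (MD + PE), a change of -1.23 (log2, SE 0.09, adjusted p = 8.95e-08) in MD + PE against CD + PE and of -1.23 (SE 0.10, adjusted p = 1.58e-07) in MD + Veh against CD + Veh. It was the only receptor called in MD + PE against CD + PE, where Plxna1, a receptor of class 5 semaphorins in the retina, differed by 0.20 (log2, SE 0.17, adjusted p = 0.539).

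Nrp2, a co-receptor of secreted semaphorins, was called lower in MD + Veh against CD + Veh (log2 fold change -0.72, SE 0.23, adjusted p = 0.0431), and this call was lost under 13 alternatives, among them each removal of CD + Veh replicate 1, 2 or 4. Plxna2 was called higher in CD + PE against CD + Veh (0.86, SE 0.23, adjusted p = 0.0409), a call lost under 11 alternatives, among them only the groups compared, a covariate for the library division or for the clock score, and the removal of any of CD + Veh replicates 1 to 4, CD + PE replicates 1 to 3 or MD + Veh replicate 4.

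Acp3 fell with the diet and was lowest in the MD groups. In CD + Veh it was at 19.8, 33.3, 12.4 and 31.9 CPM, from 319, 465, 185 and 473 counts. In CD + PE it was at 10.2, 7.63, 5.83, 6.03 and 5.83 CPM, from 123, 87, 66, 60 and 59 counts. Every CD + PE library was below the lowest CD + Veh library, which was replicate 3, as for 4.35% of all genes.

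In MD + Veh, Acp3 was at 3.87, 3.10, 4.50, 2.94 and 3.32 CPM, and in MD + PE at 1.87, 3.20, 3.65, 1.92 and 3.502 CPM. The MD groups overlapped each other and lay below every CD library, as for 8.88% of genes in MD + Veh against CD + Veh and 3.96% in MD + PE against CD + PE. The mean under CD was 24.4 ± 9.99 CPM (SD, n = 4) after Veh and 7.11 ± 1.89 (SD, n = 5) after PE. Under MD it was 3.55 ± 0.639 CPM (SD, n = 5) after Veh and 2.83 ± 0.867 (SD, n = 5) after PE.

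Acp3 changed by -1.34 in MD + PE against CD + PE (log2, SE 0.27, edgeR adjusted p = 0.00476, exact permutation p = 0.00794), where 2.92% of all genes were called lower. The CD + PE libraries in this comparison are those in which Acp3 was first picked. The comparison of MD + PE with MD + Veh shares no library with that choice, and there Acp3 differed by -0.34 (log2, SE 0.28, adjusted p = 0.616, exact permutation p = 0.198), a difference within the spread between mice. As a description, Acp3 differed by -1.77 (log2, SE 0.26) in CD + PE against CD + Veh and by -2.77 (SE 0.27) in MD + Veh against CD + Veh.

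**Figure D2:**
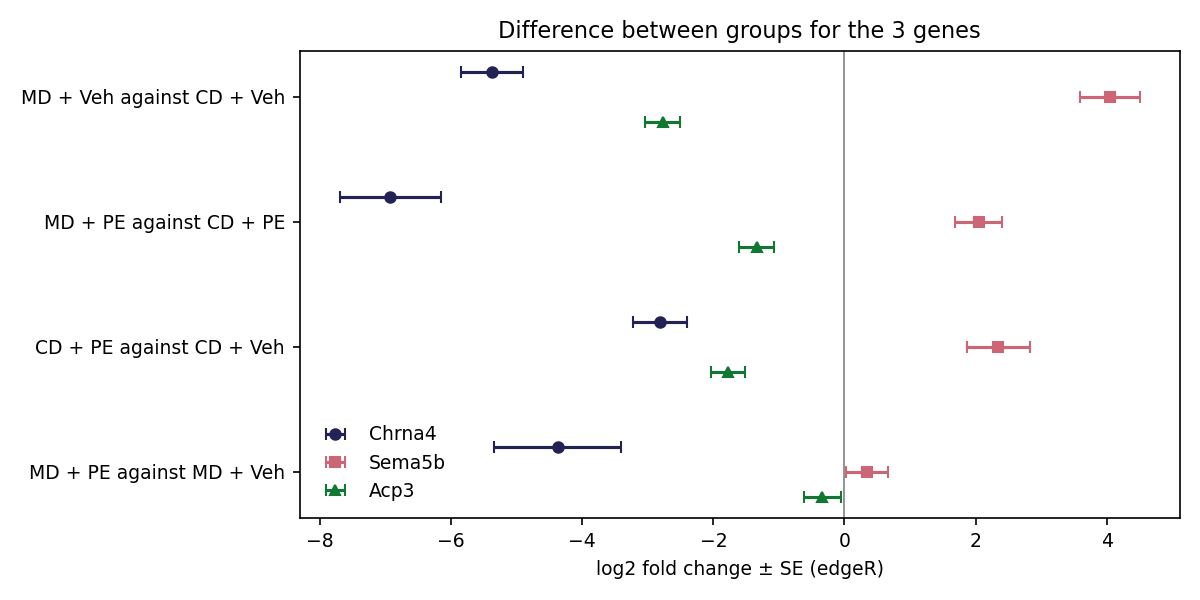
Log2 fold change ± SE from edgeR for Chrna4 (circles), Sema5b (squares) and Acp3 (triangles) in the 4 comparisons between groups. In MD + PE against MD + Veh, Sema5b (0.35) and Acp3 (-0.34) lie near 0 while Chrna4 lies at -4.37.

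Among the acid phosphatases tested, only Acp3 was called in MD + PE against CD + PE, where 4.61% of all genes were. Of 7, 5 had enough counts, and the lysosomal enzyme Acp2, the macrophage and osteoclast enzyme Acp5, the low-molecular-weight phosphatase Acp1 and the lipid phosphatase Acp6 differed by -0.04 (SE 0.09), 0.09 (SE 0.07), -0.13 (SE 0.08) and -0.26 (SE 0.09) on the log2 scale in MD + PE against CD + PE. Neither edgeR nor DESeq2 called any of these 4 in a comparison between groups. In these comparisons edgeR called 1.08% to 10.4% of all genes, and no call among 4 genes is near those shares. In MD + PE against CD + PE, Acp6 was the only one of the 4 with an unadjusted edgeR p under 0.05. Acp4 had 0 counts in all libraries, and Acp7 had at most 1.

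Genes listed for the handling of nucleotides and adenosine outside the cell were called in both directions. Of 20, 16 had enough counts. In MD + PE against CD + PE, 2 were called higher and 1 lower, where 1.69% and 2.92% of all genes were. The median log2 fold change was 0.34 against -0.02 over all genes. An unadjusted edgeR p under 0.05 was found for 11 of the 16, against 21.7% of all genes, and DESeq2 called 4. Entpd5, a diphosphatase of the endoplasmic reticulum, rose by 0.62 on the log2 scale (SE 0.11, adjusted p = 0.00132), and Enpp2, the secreted enzyme autotaxin, rose by 0.52 (SE 0.12, adjusted p = 0.0105). Slc29a1, the nucleoside carrier that takes adenosine into the cell, fell by 0.54 (SE 0.14, adjusted p = 0.0235), a call lost under 5 alternatives. The 3 calls became 5 without CD + PE replicate 2 or MD + PE replicate 3. Ada, adenosine deaminase, had 617 counts in MD + PE replicate 2 and 7 to 34 in all other libraries.

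Nt5e, the ecto-5′-nucleotidase CD73 that also makes adenosine from AMP, had group means of 2.33 CPM (CD + Veh), 4.71 (CD + PE), 5.71 (MD + Veh) and 6.61 (MD + PE). It rose by 1.30 on the log2 scale (SE 0.30, adjusted p = 0.00592) in MD + Veh against CD + Veh and differed by 0.49 (SE 0.27, adjusted p = 0.304) in MD + PE against CD + PE. Of the 16 genes, edgeR called 3 higher and 1 lower in MD + Veh against CD + Veh, where it called 4.74% of all genes higher and 5.63% lower. Adora1, the adenosine A1 receptor, rose by 0.92 (SE 0.23, adjusted p = 0.0124) in MD + Veh against CD + Veh. With the clock score as a covariate, these values were 0.67 (adjusted p = 0.458) for Nt5e and 0.83 (adjusted p = 0.29) for Adora1.

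**Figure D3:**
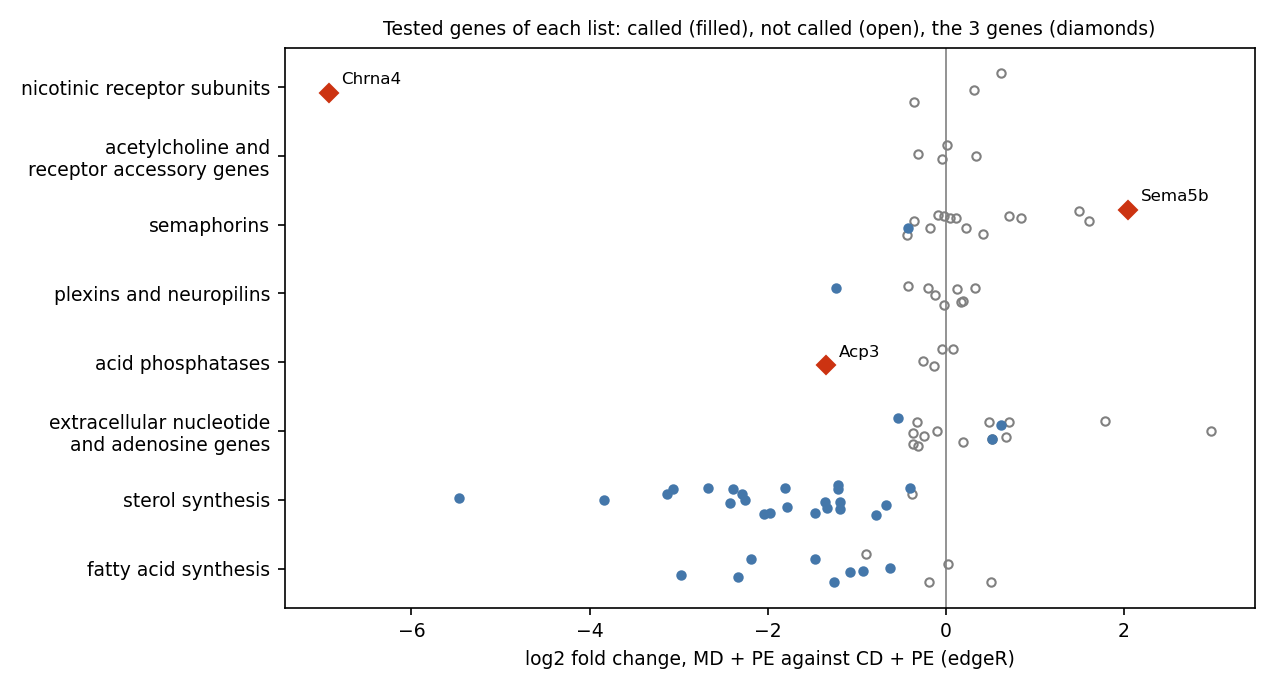
Log2 fold change in MD + PE against CD + PE for every tested gene of 8 lists, with called genes filled, other genes open and Chrna4, Sema5b and Acp3 as diamonds. Chrna4 is the only called gene of 4 nicotinic receptor subunits tested, and Acp3 the only one of 5 acid phosphatases tested. Sema5b is 1 of 2 called genes among 15 semaphorins tested. Called genes to the left of 0 are 23 of 24 sterol synthesis genes and 8 of 12 fatty acid synthesis genes. Of all genes tested, 2.92% were called lower.

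The size of the PE difference under MD minus that under CD was -1.56 for Chrna4 (log2, SE 1.24), -2.0 for Sema5b (SE 0.58) and 1.43 for Acp3 (SE 0.38). These values are a description, since they include the groups that picked the genes, and the edgeR interaction called 1 of 13597 genes (0.00735%), which was none of the 3. Over the alternatives, the adjusted p of the interaction ranged from 0.0465 to 0.533 for Acp3, so it passed the limits in at least 1. For Sema5b it ranged from 0.0635 to 0.532 and for Chrna4 from 0.678 to 0.851. A prior count of 2 moved the Chrna4 value to -0.44, and leaving out MD + PE replicate 4 moved it to -3.35. Whether PE acted differently on Chrna4 under MD and CD is not shown by these libraries.

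The genes whose levels most resembled Chrna4 over the 19 libraries were genes of sterol synthesis. The highest Pearson correlations of log2 CPM were with Dhcr7, which makes cholesterol from 7-dehydrocholesterol (r = 0.992), Pmvk and Fdps of the mevalonate pathway (0.985 each), Sc5d, a sterol desaturase (0.982), and Zfand4 (0.979). The 19 libraries share 4 groups, so r holds the differences between groups as well as those between mice. After the group means were removed, r was 0.861 for Dhcr7, 0.762 for Pmvk, 0.830 for Fdps, 0.702 for Sc5d and 0.647 for Zfand4.

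Over the whole list of 24 sterol synthesis genes, 21 had r over 0.9 with Chrna4, and the median r was 0.954 over all libraries and 0.535 within groups. Over all 13596 tested genes other than Chrna4, the sterol synthesis genes included, 88 (0.647%) had r over 0.9, and the median was 0.01. Under CD, Dhcr7 was at 116 ± 27.2 CPM (SD, n = 4) after Veh and 58.9 ± 11.3 (SD, n = 5) after PE. Under MD it was at 33.0 ± 6.40 CPM (SD, n = 5) after Veh and 14.3 ± 2.17 (SD, n = 5) after PE, the same order as Chrna4 with smaller steps.

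Sterol synthesis genes that were called were lower in each of the 4 comparisons between groups. Of the 24, 23 were called lower in MD + PE against CD + PE (median log2 fold change -1.79), with Sqle at -5.47, Idi1 at -3.84, Fdps at -3.13 and Nsdhl at -3.06. In MD + Veh against CD + Veh, 22 were called lower (median -1.56), in MD + PE against MD + Veh 14 (median -0.82) and in CD + PE against CD + Veh 11 (median -0.67). Over all genes tested, the shares called lower were 2.92%, 5.63%, 0.934% and 1.7%, in the order given. The counts of 14 and 11 were 6 and 1 with the division of library numbers as a covariate. The count of 14 became 8 or 9 without MD + Veh replicate 1 or MD + PE replicate 3 or 5, and the count of 11 became 4 with the clock score or without CD + Veh replicate 4 and 7 without CD + PE replicate 3. Of 12 fatty acid synthesis genes, 8 were called lower in MD + PE against CD + PE (median -1.001), and 5 were without MD + PE replicate 3 or 5.

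For Sema5b, the highest correlations were with Chpt1, the choline phosphotransferase of phosphatidylcholine synthesis (r = 0.957), Aldh3a2, the fatty aldehyde dehydrogenase (0.954), Ephx1, the microsomal epoxide hydrolase (0.946), Dhrs4, a peroxisomal reductase (0.940), and Acox2, a peroxisomal oxidase of bile acid precursors (0.938). Within groups these were between 0.436 and 0.630. The group means of Chpt1 were 139 CPM (CD + Veh), 197 (CD + PE), 285 (MD + Veh) and 333 (MD + PE).

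Acp3 was most like Scap, the escort protein that carries sterol regulatory element-binding proteins to the Golgi (r = 0.950), Gm31249 (0.948), Acss2 (0.942), Ist1, a membrane-scission protein (0.919), and Mr1, which presents vitamin B metabolites to T cells (0.915). Within groups these were between 0.456 and 0.633. Under CD, Scap was at 221 ± 44.6 CPM (SD, n = 4) after Veh and 141 ± 7.82 (SD, n = 5) after PE. Under MD it was at 106 ± 5.20 CPM (SD, n = 5) after Veh and 93.6 ± 13.1 (SD, n = 5) after PE. With the sterol synthesis list, the median r of Acp3 was 0.850 over all libraries and 0.07 within groups, and that of Sema5b was -0.894 and -0.32.

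Between the 3 genes, r was -0.911 for Chrna4 and Sema5b, 0.877 for Chrna4 and Acp3, and -0.876 for Sema5b and Acp3. Within groups, it was -0.451, 0.150 and 0.072. The 3 genes were picked for large differences between groups, and r over all libraries holds those differences. Among mice of a group, Acp3 hardly varied with Chrna4 or Sema5b.

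**Figure D4:**
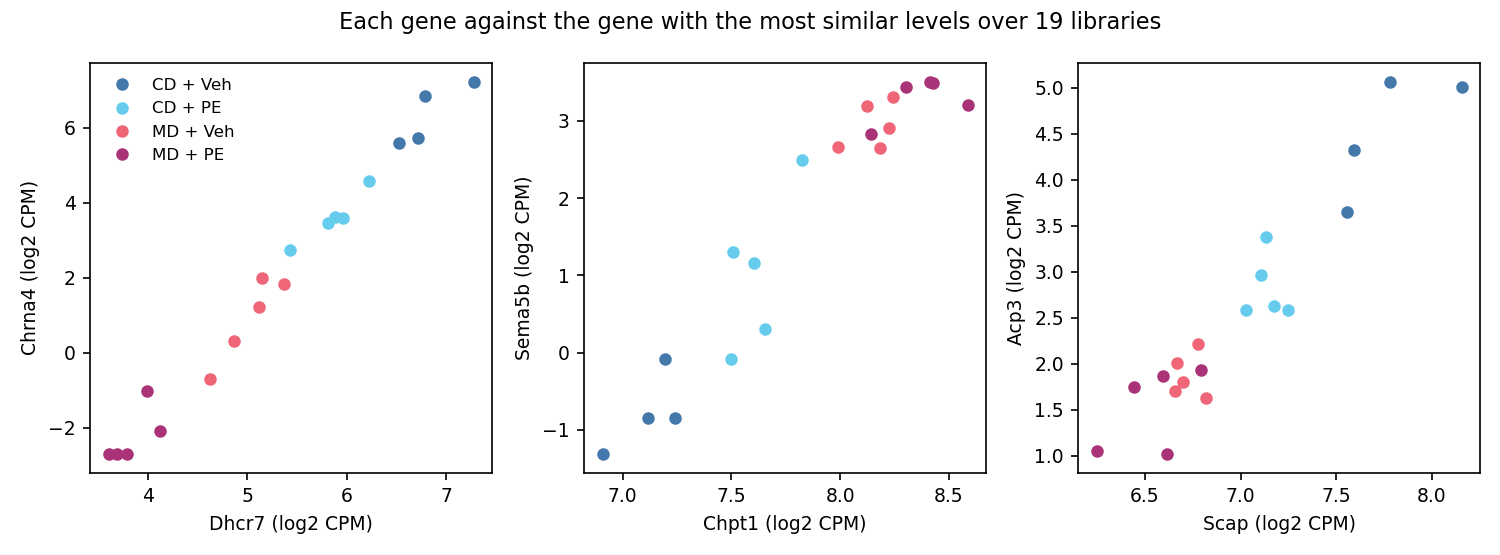
Each gene plotted against the gene most like it over 19 libraries, in log2 CPM with a prior count of 2, coloured by group. Chrna4 and Dhcr7 (r = 0.992) follow 1 line through all 4 groups, Sema5b and Chpt1 (r = 0.957) run from CD + Veh to MD + PE, and Acp3 and Scap (r = 0.950) run the opposite way, with the MD groups mixed.

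Position on the chromosome was not used to pick the 3 genes. Of the nearest 3 tested genes on either side of each gene, 18 in all, none was called in MD + PE against CD + PE, MD + PE against MD + Veh or CD + PE against CD + Veh by edgeR or DESeq2, where edgeR called 4.61%, 1.08% and 2.92% of all genes. An unadjusted p under 0.05 was found for 4, 2 and 0 of the 18, against 21.7%, 15.7% and 17.5% of all genes. Col20a1, a collagen gene that ends 16 bases from Chrna4 on the other strand, differed by -0.30 (log2, SE 0.38) in MD + PE against CD + PE. Acad11, beside Acp3, differed by 0.35 (log2, SE 0.09, adjusted p = 0.0267), under the fold limit, and was called under 3 alternatives.

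In MD + Veh against CD + Veh, 2 of the 18 were called, where 10.4% of all genes were. Pdia5, a protein disulfide isomerase gene beside Sema5b, differed by -0.68 (log2, SE 0.17, adjusted p = 0.0101), with an adjusted p of 0.34 when the clock score was a covariate. Eef1a2, an elongation factor of muscle and nerve beside Chrna4, differed by 7.32 (log2, SE 2.07, adjusted p = 0.0234), a call lost without any one of the 4 CD + Veh libraries and with DESeq2. The 8 skeletal muscle markers summed to 3020 CPM in MD + Veh replicate 1, with a median of 133 CPM in MD + Veh, 407 CPM in CD + PE replicate 1, and medians of 1.51 CPM in CD + Veh, 3.35 in CD + PE and 1.91 in MD + PE.

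**Figure D5:**
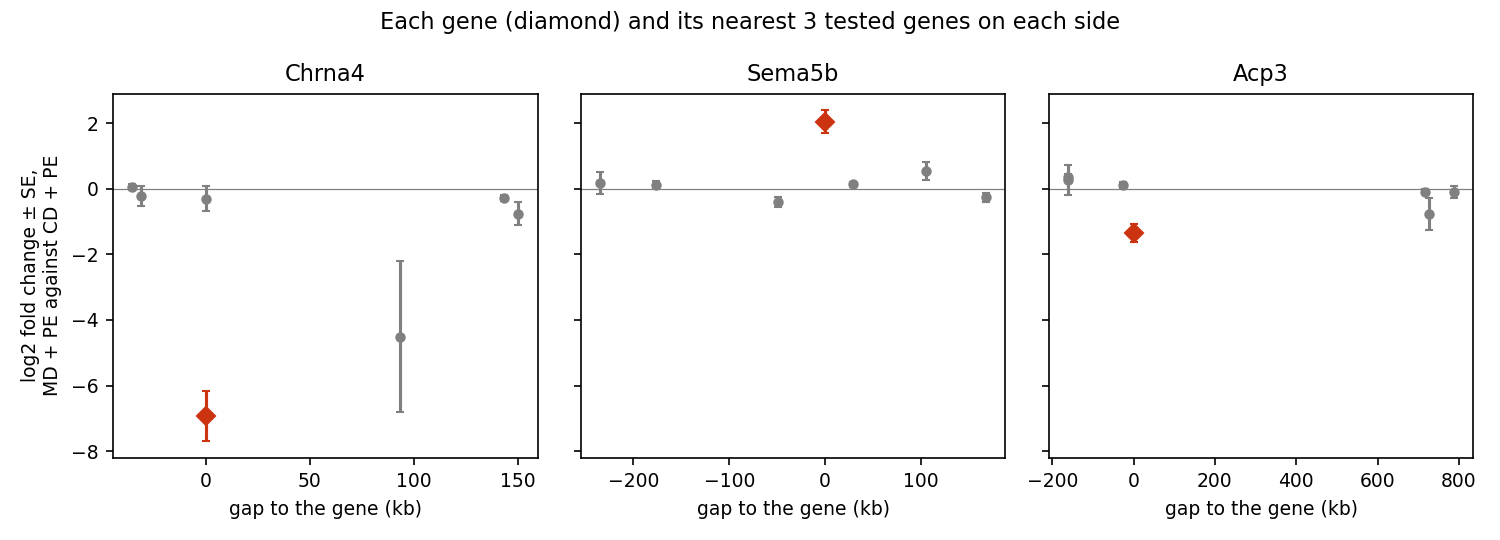
Log2 fold change ± SE in MD + PE against CD + PE for Chrna4, Sema5b and Acp3 (diamonds) and the nearest 3 tested genes on each side (grey), against the gap between them in kb. Apart from Eef1a2 at -4.51 (SE 2.3), the neighbours lie between -0.77 and 0.55.

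Several features of the tissue and the libraries moved with the groups, and their part in the values above was not tested except where a value is given. In bulk tissue, fewer cells of a type and less RNA per cell cannot be told apart. Totals ranged from 10398820 to 15456729 counts, with medians of 15089731.5 (CD + Veh), 10837229 (CD + PE), 14790140 (MD + Veh) and 11615001 (MD + PE), so that 3 counts were worth 0.186 to 0.301 CPM. Hepatocyte markers summed to a median of 84500, 85000, 66400 and 59800 CPM in these groups, with no marker at 0. Nerve and Schwann cell markers summed to a median of 2.49, 2.65, 2.48 and 2.19 CPM, at most 6.72 CPM in any library. Bile duct markers summed to 35.3 to 56.4 CPM except for 181 CPM in MD + PE replicate 2. In that library the exocrine pancreas and gut markers also reached 126 CPM, against a median of 20.9 CPM in MD + PE. Its Chrna4 count was 0, like that of replicates 3 and 5.

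The macrophage markers summed to medians of 187 CPM (CD + Veh), 129 (CD + PE), 263 (MD + Veh) and 222 (MD + PE), and the stellate cell markers to 195, 209, 279 and 252 CPM. Endothelial markers were between 185 and 294 CPM in every library. A clock score, the mean log2 CPM of 5 genes of the positive arm of the circadian clock minus that of 10 genes of the negative arm, had medians of -3.10 (CD + Veh), -1.67 (CD + PE), -0.47 (MD + Veh) and -0.83 (MD + PE). With the score as a covariate, Chrna4, Sema5b and Acp3 were still called in MD + PE against CD + PE, as they were under all 30 alternatives, which ranged from -8.71 to -5.72 for Chrna4, 1.82 to 2.64 for Sema5b and -1.45 to -1.17 for Acp3. Among the 30 are removals of single CD + Veh and MD + Veh libraries, which are outside this comparison. The library division is also among them and does not vary between MD + PE and CD + PE. For the permutation test, a call needed an unadjusted p under 0.05 and the same fold limit.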

How the data were processed

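Poly(A) RNA of the livers was made into stranded libraries and sequenced on an Illumina NextSeq. According to the study's methods, the authors trimmed the reads with fastp 0.23.4, quantified them with Salmon 1.10.3 on the GENCODE GRCm39 transcriptome and used tximport to bring the transcripts to gene level. The authors' deposited file holds estimated counts per gene, not normalized, which were rounded to whole counts here. Groups followed the treatment labels, and all 19 libraries entered one quasi-likelihood fit in edgeR 4.0.16 (TMM scaling, filterByExpr by group, 1 coefficient per group) in R 4.3.3. A gene was called at a Benjamini-Hochberg adjusted p under 0.05 over all genes tested and a log2 fold change of 0.38 or more in size. CPM used effective library sizes, correlations used log2 CPM with a prior count of 2, and the exact permutation tests are two-sided. Salmon shares reads among transcripts by estimation, so overlapping genes can exchange counts.

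Positions came from the GENCODE GRCm39 annotation, in which 99.3% of the tested genes were matched, and promoters from a RefSeq table on GRCm38.p6. The 3 genes, the gene lists and the rule for named genes were chosen with earlier results of these data known. Named genes were the 3 genes, up to 4 called genes per list and diet comparison, the 5 genes most like each in level, the nearest 3 tested genes on either side, and any listed gene that 1 library decided. Other family members were named to complete a family. The fit was tested on simulated data. Replicates are separate mice, and p-values measure the spread between these mice. Same-numbered replicates did not vary together (27 pairs, median r = 0.029, 6 of them over 0.1), so replicate numbers were not taken as pairs. Library pairs within groups differed by more than sampling noise (chi-square per gene 11.2 to 85.5 over 36 pairs). Alternatives were RLE scaling, other filters on low counts, only the groups compared, the replicate block, thinning to equal depth, the library division and the clock score as covariates, DESeq2 1.42.0, each replicate left out and, added after the data were seen, a prior count of 2.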

Additional observations from a re-analysis of the deposited data

Results flagged for a closer look

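Chrna4 in MD + PE replicate 4 stood apart from the other 4 libraries of its group. It was at 0.343 CPM from 5 counts, and the gap to the next library was 0.763 of the range of the group, above the limit of 0.71 for 5 libraries. For normally distributed values such a gap appears by chance in about 1 in 20 groups, and 12 groups were examined. Here 3 of the 5 libraries had 0 counts, for which that rate does not hold, so the gap is only a description. Without that library, Chrna4 changed by -8.71 in MD + PE against CD + PE and by -6.15 in MD + PE against MD + Veh on the log2 scale.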

How the results depend on the processing

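Of 318 alternative values for the 3 genes and for the counts of called genes, 290 kept their direction and their side of the limits or stayed within 1.5 times of the count, 6 lost a call, 22 moved further and 0 reversed. Among the 318 are removals of libraries that are not in the comparison concerned. In MD + PE against CD + PE, where 627 genes were called, leaving out 1 library gave 505 (MD + PE replicate 5 left out) to 987 (CD + PE replicate 2 left out). In MD + PE against MD + Veh (147 genes), the count was 73 with only the groups compared, 33 with the library division as a covariate, 299 with DESeq2 and with 1 library left out from 56 (MD + PE replicate 3) up to 243 (MD + Veh replicate 4). In CD + PE against CD + Veh (397) it was 37 with the division, 254 with the clock score and 215 (without CD + Veh replicate 4) to 426 with 1 library left out. In MD + Veh against CD + Veh (1410) it was 380 with the clock score and 1019 to 1652 with 1 library left out. For the interaction (1 gene), DESeq2 gave 81, the division 54, the clock score 0 and leaving out 1 library 0 to 3, and at an unadjusted p under 0.05 there were 1193 genes. With the replicate block, although the numbers do not pair the mice, the interaction called 41 genes and MD + PE against CD + PE 606, and no call of the 3 genes was lost. Chrna4 in MD + PE against MD + Veh was at -4.18 with the division (not called) and at -6.15 to -4.06 with 1 library left out. With only those groups compared it had too few counts to be tested. The causes were not tested. Chrna4 in MD + PE rests on 6 counts in all, and 3 counts were worth 0.186 to 0.301 CPM, so the levels of these mice, the one that stood apart included, are at the limit of detection.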
